A study of Mus musculus with 4 samples.

Results

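Amino acid transporters are described here as 9 genes chosen by symbol, *Slc7a1*, *Slc7a5*, *Slc7a6*, *Slc7a11*, *Slc3a2*, *Slc1a4*, *Slc1a5*, *Slc38a1* and *Slc38a2*, among 15981 genes in all. Their RNA was measured by RNA-Seq in mouse CD8+ T cells recovered from B16 melanoma, 2 libraries of Tc1 cells and 2 of Tc9 cells. Both groups were C57BL/6 Thy1.1+ Pmel-1 T cells, which carry a transgenic receptor for the melanoma antigen gp100, and they were kept in culture for 5 days. Tc1 cells were polarized with rhIL-2, and Tc9 cells with IL-4, TGF-β and an antibody against IFN-γ. By the study's general culture methods, the last 2 of these days were in standard medium with rhIL-2 for both kinds. Each kind was injected into Thy1.2+ B6 mice with 10-day subcutaneous B16 tumors, and the cells were sorted from the tumors 14 days later. For transfers of this kind the study's methods name further treatment of the hosts with CTX, rhIL-2 and dendritic cells, and RNA of several mice was pooled into each library. Nothing states that the pools hold different mice, so the p-values measure the spread between these libraries, which may be technical. The question was how the transporters' transcripts compared in Tc9 and Tc1 cells that had spent the same time in the same kind of tumor.

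T cells take up most amino acids through carriers that are induced when the cells are activated. *Slc3a2* encodes 4F2hc, a heavy chain that brings several light chains to the cell surface, among them LAT1 (*Slc7a5*), which exchanges glutamine for leucine and other large neutral amino acids, y+LAT2 (*Slc7a6*), which handles cationic and neutral amino acids, and xCT (*Slc7a11*), which exchanges glutamate for cystine, a precursor of glutathione. CAT1 (*Slc7a1*) carries arginine and lysine without a heavy chain, ASCT2 (*Slc1a5*) and ASCT1 (*Slc1a4*) exchange small neutral amino acids, and SNAT1 (*Slc38a1*) and SNAT2 (*Slc38a2*) draw in glutamine and other neutral amino acids with sodium. Several of these genes are known targets of ATF4, the transcription factor of the amino acid response.

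The 4 tables list genes by identifier and reach different distances, so the number of libraries that can be read differs between members. Tc1 replicate 1 lists 1535 genes, Tc1 replicate 2 lists 7408, Tc9 replicate 1 lists 3152 and Tc9 replicate 2 lists 15442, while the depth behind them was alike, 30822953 to 31927162 counts. *Slc7a1* and *Slc38a1* were reached by 4 libraries, *Slc3a2* by 3, *Slc7a5*, *Slc7a11* and *Slc1a5* by the replicate 2 libraries alone, and *Slc7a6*, *Slc1a4* and *Slc38a2* by Tc9 replicate 2 alone. The Tc9 libraries stood further apart than the Tc1 libraries, with a median difference of 0.23 against 0.08 on the log2 scale over genes with 10 or more counts. These medians cover unlike sets, 2587 genes for Tc9 and 1279 for Tc1. In the replicate 2 libraries all 10 CD8 T cell markers had at least 2758 counts, with summed levels of 4378 CPM (counts scaled by library size) in Tc1 and 4345 CPM in Tc9. Melanoma markers summed to 2.61 CPM in Tc1 and 4.28 CPM in Tc9, mostly from *Pmel* (70.0 and 117 counts). *Tyr* had 6 and 12.9 counts and *Mitf* 6 and 5 counts, and *Tyrp1*, *Dct* and *Sox10* were at 0 in both. Myeloid markers summed to 7.55 and 14.3 CPM, nearly all from *Cd68* (221 and 439 counts), while *Itgam* had 12 and 2 counts, the other myeloid markers at most 3, and *Lyz2*, *C1qa* and *C1qc* were at 0 in both. Markers of B cells, fibroblasts and red cells summed to at most 0.478 CPM, and those of endothelium to 14.2 and 14.3 CPM, nearly all from *Pecam1* (445 and 446 counts). In such sorted bulk samples fewer cells carrying a transcript and less of it per cell cannot be told apart.

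The 6 transporters that could be compared were all lower in the Tc9 than in the Tc1 libraries, by very unequal amounts. Lower values were common, since 46.8% of the 4924 genes compared between the replicate 2 libraries outside the 4-library range had ratios below 0. *Slc7a11* and *Slc3a2*, a light chain and its heavy chain, differed most, *Slc7a5*, *Slc7a1* and *Slc38a1* by less, and *Slc1a5* hardly at all. Of the 3 members reached by more than 2 libraries, *Slc7a1* was called lower by edgeR's quasi-likelihood test, a call that some settings did not keep. So were 16.7% of the 1284 genes tested over the 4 libraries. *Slc38a1* and *Slc3a2* were not called.

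**Figure D1:**
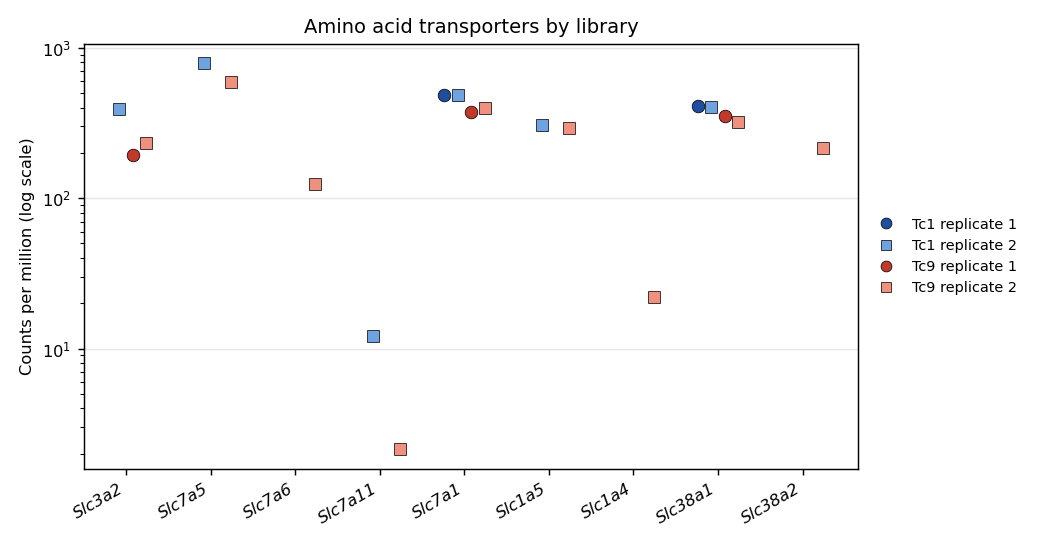
Level of each transporter in every library that reaches it, in CPM on a log axis, with circles for replicate 1, squares for replicate 2, blue for Tc1 and red for Tc9. Where both groups can be read the Tc9 points lie below the Tc1 points, from 12.2 against 2.14 CPM for *Slc7a11* to 306.0 against 294.1 CPM for *Slc1a5*.

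*Slc7a11* (gene 26570, chr3:50364936-50499087 in RefSeq's GRCm38.p6 annotation) was the least abundant member and had the widest gap. It had 383 counts in Tc1 replicate 2 (12.2 CPM) and 67 counts in Tc9 replicate 2 (2.14 CPM), far above the floor of 3 counts in both. The log2 ratio of Tc9 to Tc1 was -2.48, with a 95% Wilson interval from -2.89 to -2.14 that covers counting error only, or 5.58-fold lower in Tc9. There is 1 library in each group here, hence no test. Of the 4924 genes compared in the same way, 43 (0.873%) had a ratio as low or lower, and the gap exceeded the 0.73 within which 95% of genes with 50 to 500 counts differed between the 2 Tc9 libraries. *Pmel* and *Cd68*, the genes that make up most of the melanoma and myeloid marker sums, were higher in the Tc9 library, as was *Tyr*. *Itgam* and *Mitf* were lower there, and 3 markers of each list were at 0 in both libraries. The part of other cells in the result was not tested. In levels per gene length, *Slc7a11* stood at 1.32 FPKM in Tc1 replicate 2 and 0.24 FPKM in Tc9 replicate 2, where it ranked above only 21.5% of the genes listed.

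The sequence before the *Slc7a11* start (250 bases from RefSeq, GRCm38.p6, chr3:50443614-50443863, minus strand, a start that lies inside the annotated span of the gene) is shown because this member had the lowest ratio, and that of its heavy chain *Slc3a2* (chr19:8713898-8714147, minus strand, likewise inside the gene's span) for comparison. Capitals mark matches, on either strand, to TGATGNAA, the composite C/EBP-ATF letters to which ATF4 is known to bind, and to TTCNNNGAA, the letters of STAT sites.
Slc7a11: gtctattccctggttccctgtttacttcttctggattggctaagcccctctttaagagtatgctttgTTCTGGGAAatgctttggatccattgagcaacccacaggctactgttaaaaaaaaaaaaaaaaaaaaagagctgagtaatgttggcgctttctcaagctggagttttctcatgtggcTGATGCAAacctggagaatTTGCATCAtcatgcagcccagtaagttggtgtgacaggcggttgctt
Slc3a2: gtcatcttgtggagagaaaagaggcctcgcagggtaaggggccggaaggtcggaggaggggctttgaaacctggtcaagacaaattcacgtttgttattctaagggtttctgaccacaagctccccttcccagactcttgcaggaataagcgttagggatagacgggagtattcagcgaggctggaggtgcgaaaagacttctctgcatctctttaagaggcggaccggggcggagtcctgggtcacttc

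In the *Slc7a11* window TGATGNAA matched at 2 places, beginning 66 and 47 bases before the start and facing opposite ways, and both read TGATGCAA. TTCNNNGAA matched at 1 place, 183 bases before the start, with no overlap. Of all 32851 promoter windows (300 bases, 250 before and 50 after a start), 3.97% held TGATGNAA, 0.07% held it 2 or more times and 8.3% held TTCNNNGAA. The *Slc3a2* window held neither. Of the 9 transporters, 6 had windows in the RefSeq table (8 windows, all but *Slc7a5*, *Slc1a5* and *Slc38a1*), and *Slc1a4* was the only other with TGATGNAA, beginning 4 bases before its start (chr11:20332701-20332726, minus strand, match in capitals).
Slc1a4: cctcctgcgTTGCATCAtctccagcc

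A TTCNNNGAA match lay in the second of the *Slc7a1* windows, 146 bases before that start. The windows of *Slc7a6* and *Slc38a2* held neither set of letters. These matches are a description of the letters in the windows, and binding was not measured.

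*Slc3a2* (gene 17254, chr19:8706882-8723369), the heavy chain that these light chains need to reach the membrane, was at 391.7 CPM in Tc1 replicate 2, 192.4 CPM in Tc9 replicate 1 and 231.7 CPM in Tc9 replicate 2. Both Tc9 libraries, with a mean of 212.1 ± 27.8 CPM (SD, n = 2), lay below the Tc1 library, as they did for 37.8% of the 2622 genes tested over these 3 libraries. A fit over the 3 libraries, chosen after the data had been seen and resting on the assumption that the lone Tc1 library varies like the Tc9 libraries, gave a log2 fold change of -0.89 ± 0.22 (SE), or 1.85-fold lower in Tc9. Its Benjamini-Hochberg adjusted p over all genes was 0.0618 by edgeR's quasi-likelihood test, short of 0.05, where 3.2% of genes were called lower. The call depended on the setting, since the adjusted p was 0.257 without a filter on low counts and 0.00288 with a filter at 50 counts, and ranged from 0.00152 (DESeq2) to 0.0804 (limma on log2(FPKM + 0.1)) in the others. Between the replicate 2 libraries alone the log2 ratio was -0.76 (95% Wilson interval, -0.80 to -0.72), and Tc9 replicate 1 against the same Tc1 library gave -1.03. Both gaps exceeded the 0.27 between the Tc9 libraries for this gene.

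*Slc7a5* (gene 20539, chr8:121881146-121907686), which pairs with *Slc3a2* to form the main leucine carrier of activated T cells, had 24772 counts in Tc1 replicate 2 (789.0 CPM) and 18468 counts in Tc9 replicate 2 (588.6 CPM). The Tc9 library was lower by a log2 ratio of -0.42 (95% Wilson interval, -0.45 to -0.40), or 1.34-fold. That gap is smaller than the 0.49 within which 95% of genes with 1000 or more counts differed between the Tc9 libraries, and 977 of 4924 genes (19.8%) were as low or lower. *Slc7a6* (gene 330836, chr8:106168219-106198714), read in Tc9 replicate 2 only, had 3928 counts (125.2 CPM), and no Tc1 level was analysed here.

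Set against each other per gene length in Tc9 replicate 2, the light chains that 4F2hc can carry were led by *Slc7a5*. It stood at 177.6 FPKM, or 83.3% of the summed 213.2 FPKM of 6 light chain genes, and *Slc7a6* at 35.08 FPKM, or 16.5%. *Slc7a11* made up 0.113%, and *Slc7a7*, *Slc7a8* and *Slc7a10*, the other light chains, stood at 0.20, 0.08 and 0 FPKM. *Slc3a2* itself was at 96.88 FPKM, below *Slc7a5* alone.

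*Slc7a1* (gene 11987, chr5:148327410-148399904), the arginine and lysine carrier, was 1 of the 2 members reached by all 4 libraries. It was at 484.1 and 486.4 CPM in the Tc1 libraries and 372.4 and 400.9 CPM in the Tc9 libraries, replicates 1 and 2 in order. The groups did not overlap, with means of 485.2 ± 1.63 CPM in Tc1 and 386.7 ± 20.2 CPM in Tc9 (SD, n = 2 each). *Slc7a1* fell by 0.33 on the log2 scale in Tc9 (SE 0.10, 1.25-fold lower), with an adjusted p of 0.0310 by edgeR's quasi-likelihood test. Of the 1284 genes tested over the 4 libraries, 16.7% were called lower and 35.7% had both Tc9 libraries below both Tc1 libraries, so neither sets *Slc7a1* apart from other genes. The call was lost without Tc1 replicate 1 (adjusted p = 0.351) and without Tc1 replicate 2 (adjusted p = 0.396), fits in which the spread comes from the Tc9 pair alone, and also with the replicate number as a block (adjusted p = 0.0510), with scaling by library size only (adjusted p = 0.0527), without a filter on low counts (adjusted p = 0.0602) and with limma on FPKM (adjusted p = 0.0602 and 0.0604), with the same direction in each.

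*Slc38a1* (gene 105727, chr15:96571418-96643438), a sodium-coupled glutamine carrier, was at 409.4 and 402.5 CPM in the Tc1 libraries and 351.8 and 319.4 CPM in the Tc9 libraries. The groups did not overlap here either, with means of 405.9 ± 4.88 CPM in Tc1 and 335.6 ± 22.9 CPM in Tc9 (SD, n = 2 each). The log2 fold change was -0.27 ± 0.10 (SE), with an adjusted p of 0.0661 by edgeR's quasi-likelihood test, just past 0.05. It was called with the TMM factors of the replicate 2 libraries (adjusted p = 0.0384), without Tc9 replicate 1 (adjusted p = 0.000273) and without Tc9 replicate 2 (adjusted p = 0.00876), fits in which the spread comes from the closer Tc1 pair alone. The adjusted p was 0.475 without Tc1 replicate 1 and 0.473 without Tc1 replicate 2, where it comes from the Tc9 pair alone, and 0.115 with the replicate block. Its neighbor on the chromosome, *Slc38a2* (gene 67760, chr15:96687392-96699728), which lies 43953 bases away and encodes the SNAT2 carrier, had 6776 counts (216.0 CPM) in Tc9 replicate 2, the only library to reach it.

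*Slc1a5* (gene 20514, chr7:16781334-16798274), the glutamine exchanger ASCT2, was nearly level between the groups. It had 9607 counts in Tc1 replicate 2 (306.0 CPM) and 9228 counts in Tc9 replicate 2 (294.1 CPM), a log2 ratio of -0.06 (95% Wilson interval, -0.10 to -0.02). Of 4924 genes, 43.0% had a ratio as low or lower, and the ratio shrank to -0.0073 with scaling by library size only. *Slc1a4* (gene 55963, chr11:20302180-20332713), its relative with a preference for alanine, serine and cysteine, was read in Tc9 replicate 2 only, with 693 counts (22.1 CPM).

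Among the 4 members compared between the replicate 2 libraries outside the 4-library range, *Slc7a11* and *Slc3a2* were past 1.5-fold lower and none was past 1.5-fold higher, where 12.6% of 4924 genes were past 1.5-fold lower and 21.7% past 1.5-fold higher. All 4 ratios were below 0, as were those of 46.8% of genes, and their median was -0.59 against 0.04 over all genes. With 4 genes and 1 library per group this is a description of these libraries.

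**Figure D2:**
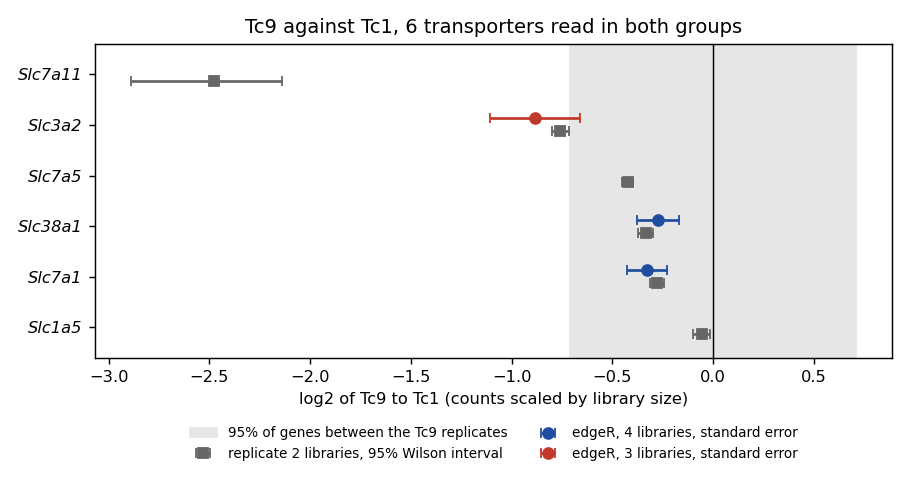
Difference between Tc9 and Tc1 for the 6 transporters read in both groups, on a log2 axis, with gray squares for the replicate 2 libraries (bars, 95% Wilson interval), circles for edgeR fits (blue, 4 libraries; red, 3 libraries; bars, standard error) and a gray band for the 95% range of differences between the Tc9 libraries over genes with 10 or more counts (0.71 either way). *Slc7a11* at -2.48 and *Slc3a2* at -0.89 and -0.76 lie outside the band, and the other 4 genes inside it. The -0.76 of *Slc3a2* depends on scaling. It became -0.707 with library size only or log2(FPKM + 0.1) and -0.702 with log2(FPKM + 1), inside the band's edge of 0.711.

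The order of the members was read from FPKM, since only a level per length can be set between genes. In Tc9 replicate 2 it ran from *Slc7a5* (177.6 FPKM) through *Slc1a5* (114.33), *Slc3a2* (96.88), *Slc7a1* (58.09), *Slc38a2* (47.67), *Slc38a1* (44.22), *Slc7a6* (35.08) and *Slc1a4* (5.94) to *Slc7a11* (0.24). Taking as a yardstick the log2 difference of 0.49 within which 95% of genes with 1000 or more counts differed between the Tc9 libraries, *Slc7a5* stood above *Slc1a5* (1.55-fold), *Slc3a2* above *Slc7a1* (1.67-fold), *Slc7a6* above *Slc1a4* (5.91-fold) and *Slc1a4* above *Slc7a11* (24.8-fold). *Slc1a5* and *Slc3a2* did not differ beyond it, nor did any neighbors in the run of *Slc7a1*, *Slc38a2*, *Slc38a1* and *Slc7a6*. The yardstick was measured for the same gene between libraries, so it does not cover error between different genes within a library. *Slc1a4* (693 counts) and *Slc7a11* (67 counts) also lie under its 1000 counts. *Slc7a5* ranked above 97.7% of the genes listed in this library and *Slc1a4* above 52.5%.

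In Tc1 replicate 2 the 6 members reached were ordered *Slc7a5* (229.74 FPKM), *Slc3a2* (158.25), *Slc1a5* (114.89), *Slc7a1* (68.03), *Slc38a1* (54.32) and *Slc7a11* (1.32). *Slc3a2* and *Slc1a5* thus stood in the opposite order in the 2 libraries. The log2 difference between these genes was 0.46 in Tc1 and 0.24 in Tc9. Both values lie within the 0.49 of the Tc9 libraries, the yardstick used above, with the same limit. The 0.46 is beyond the 0.15 within which 95% of genes with 1000 or more counts differed between the Tc1 libraries.

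**Figure D3:**
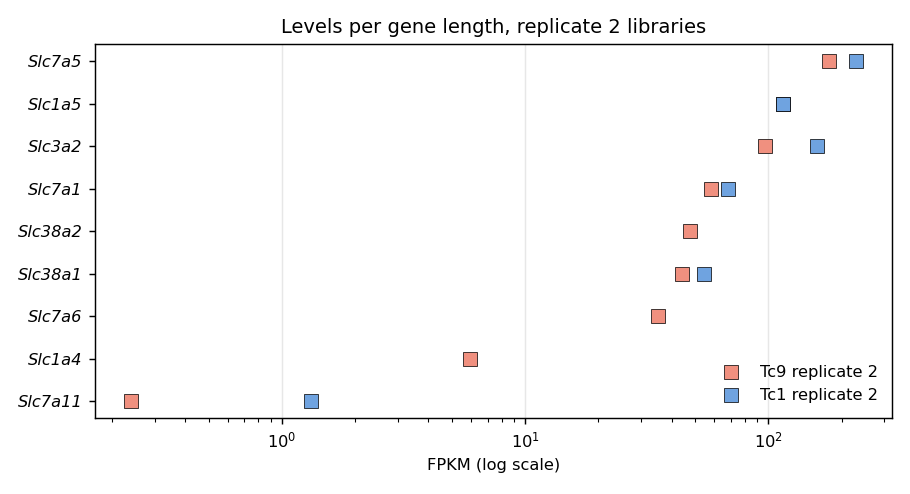
FPKM of the transporters in the replicate 2 libraries on a log axis, blue for Tc1 and red for Tc9, ordered by the Tc9 level. Of the 9 members, 7 lie between 35.08 and 177.6 FPKM in Tc9, *Slc1a4* at 5.94 and *Slc7a11* at 0.24, and for *Slc1a5* (114.89 and 114.33 FPKM) the points coincide.

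Of the genes tested over the 4 libraries, those whose profile lay closest to *Slc7a1* were *Lars2*, the mitochondrial leucyl-tRNA synthetase (distance of 0.0449 between log2 CPM profiles centred on their means), *Hlcs* (0.0477) and *Kifc1* (0.0522), where the median gene was at 0.487. Closest to *Slc38a1* were *Plekha1* (0.0348), *Blm* (0.0361) and *Efl1* (0.0410), with a median of 0.461. These distances rest on 4 libraries in 2 groups.

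Around the 9 transporters, 5 lists of 152 genes in all were described, and they were chosen with earlier results of these data known. Of the 50 other amino acid transporters, 3 were tested over the 4 libraries. *Slc7a3*, the gene of the cationic carrier CAT3 and a relative of *Slc7a1*, fell by 1.05 on the log2 scale in Tc9 (SE 0.12, adjusted p = 0.000123 by edgeR's quasi-likelihood test), from 1002 and 986 counts in the Tc1 libraries to 469 and 487 in the Tc9 libraries. *Slc7a2*, the cationic carrier CAT2, rose at a very low level, from 0 and 4 counts in the Tc1 libraries to 39 and 28 in the Tc9 libraries (adjusted p = 0.00157 by the same test). Both calls held without any single library. Of the cationic carriers, *Slc7a1* and *Slc7a3* were thus called lower and *Slc7a2* higher. Between the replicate 2 libraries 12 others were compared, of which 3 were past 1.5-fold higher (*Slc7a4*, *Pqlc2* and *Slc36a3*) and 1 past 1.5-fold lower (*Slc7a7*). *Slc7a4* (5 and 23 counts), *Slc36a3* (13 and 23 counts) and *Slc7a7* (21.0 and 12.0 counts) were near the floor, and the intervals of the last 2 include 0, while *Pqlc2*, a lysosomal exporter of cationic amino acids, had 117 and 207 counts (log2 ratio 0.81, 95% Wilson interval 0.50 to 1.15).

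The amino acid response list holds *Atf4*, *Eif2ak4* and genes that ATF4 and its partners are known to drive when amino acids run short. Over the 4 libraries 6 of 10 tested genes were called lower and 0 higher, where 16.7% of all genes tested were called lower and 17.4% higher. The list's median log2 fold change was -0.49 against 0.0014 over all genes. *Atf4* itself was among the 6, from 13067 and 13040 counts in the Tc1 libraries to 9100 and 9824 in those of Tc9 (log2 fold change -0.46 ± 0.10 SE, adjusted p = 0.00753 by edgeR's quasi-likelihood test). The largest changes were in *Cth*, which makes cysteine from cystathionine (1786 and 2029 counts in Tc1, 575 and 543 in Tc9, log2 fold change -1.77), and *Gpt2*, which links alanine to glutamate (1727 in both Tc1 libraries, 679 and 727 in Tc9, log2 fold change -1.29). The serine pathway genes *Psat1* (-0.61), *Psph* (-0.68) and *Shmt2* (-0.52) fell too. Without Tc1 replicate 1 or without Tc1 replicate 2 only 2 of these 6 calls were left, those of *Cth* and *Gpt2*, and without a filter on low counts the call of *Shmt2* was lost (adjusted p = 0.0820 by the same test). Of the 9 genes compared between the replicate 2 libraries, 4 were past 1.5-fold lower, among them *Mthfd2* (8337 and 3829 counts), *Trib3* (1939 and 1018 counts) and *Phgdh* (18027 and 11651 counts), and 1 was past 1.5-fold higher, *Vldlr* (196 and 463 counts), against 12.6% and 21.7% of all genes. The 4 became 2, with *Phgdh* just short of 1.5-fold, when scaled by library size only (log2 ratio of *Phgdh* -0.58) or read from FPKM with either pseudocount (-0.58 each). *Pycr1* (log2 ratio 0.47) and *Stc2* (-0.18) completed the upper end.

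Aminoacyl-tRNA synthetases, which load amino acids onto tRNA, were called lower in 6 of 6 tested genes, where 16.7% of all genes were, *Eprs* (-0.48), *Iars* (-0.50), *Lars* (-0.72), *Rars* (-0.36), *Tars* (-0.58) and *Yars* (-0.60), all log2 fold changes with adjusted p from 0.00189 to 0.0384 by edgeR's quasi-likelihood test. All 6 calls were lost without Tc1 replicate 1 and again without Tc1 replicate 2, and 3 were left without a filter on low counts. *Rars* also lost its call with limma on FPKM (adjusted p = 0.0578 and 0.0596) and with library size only (adjusted p = 0.0546). Between the replicate 2 libraries 7 of 8 others were below 0 and 1 was past 1.5-fold lower, against 46.8% and 12.6% of all genes, with *Farsb* (-0.80), *Hars* (-0.54) and *Mars* (-0.53) lowest and *Vars* (0.27), *Wars* (-0.27) and *Sars* (-0.30) highest, as log2 ratios.

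Of 9 tested genes that use amino acids, 2 were called lower and 2 higher, shares near the 16.7% and 17.4% of all genes. *Gldc*, of glycine cleavage (83 and 74 counts in Tc1, 20 and 22 in Tc9, log2 fold change -1.89), and *Bcat1*, the cytosolic transaminase of branched-chain amino acids (-0.97), fell, while *Bckdha* (0.75), of the branched-chain ketoacid dehydrogenase, and *Ass1* (0.53), of arginine synthesis, rose. The calls for *Bckdha* and *Ass1* were lost without a filter on low counts (adjusted p = 0.0627 and 0.0700 by edgeR's quasi-likelihood test) and without Tc1 replicate 1 (adjusted p = 0.148 and 0.194), and that for *Ass1* also without Tc1 replicate 2 (adjusted p = 0.261). Of 14 compared between the replicate 2 libraries, *Odc1*, of polyamine synthesis (24999 and 13213 counts, log2 ratio -0.92), was past 1.5-fold lower and *Gls2*, a glutaminase (443 and 819 counts, 0.88), past 1.5-fold higher, with *Shmt1* (-0.55) and *Got1* (-0.45) next lowest and *Oat* (0.05) and *Mat2a* (-0.01) next highest. Over all genes 12.6% were past 1.5-fold lower and 21.7% higher. Downstream of cystine uptake, *Gclc*, *Gclm* and *Gss*, the genes of glutathione synthesis, named here outside the rule and with their values known, had 2876, 1264 and 584 counts in Tc1 replicate 2, 3114, 1015 and 519 in Tc9 replicate 1 and 2814, 927 and 479 in Tc9 replicate 2, and none was called over the 3 libraries.

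Of the mTORC1 genes, which sense amino acids at the lysosome, *Sec13* alone was tested over the 4 libraries, with a log2 fold change of -0.18 and an adjusted p of 0.211 by edgeR's quasi-likelihood test. Of 8 compared between the replicate 2 libraries, *Rragb* (192 and 117 counts, log2 ratio -0.70) was past 1.5-fold lower, followed by *Rheb* (-0.44) and *Fnip1* (-0.21), and *Tsc2* (0.42), *Sesn1* and *Flcn* (0.28 each) were highest. Over all 5 lists 3 of 29 genes were called higher and 15 lower, where 17.4% and 16.7% of all genes tested were called. Of the lists' 15 further genes tested over 3 libraries, 0 were called by edgeR and by DESeq2, with 0 higher and 2 lower at an unadjusted p under 0.05 by edgeR, where 7.51% and 3.2% of all genes were called. Between the replicate 2 libraries 5 of 51 were past 1.5-fold higher and 8 lower, where 21.7% and 12.6% of all genes were, so the lower share is near that of all genes. No Tc1 library reached 51 genes of the lists, which were not compared here.

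**Figure D4:**
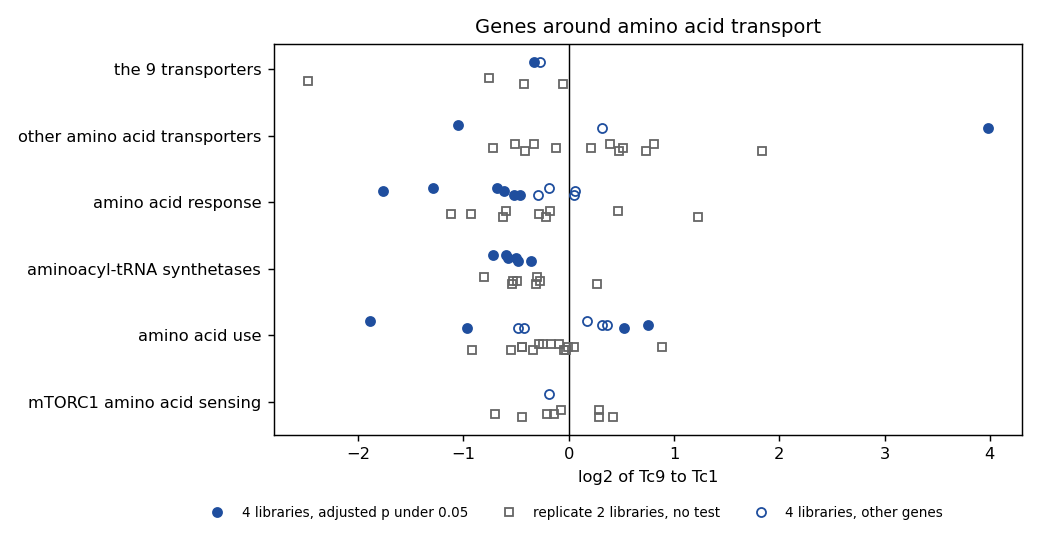
Log2 of Tc9 to Tc1 for each compared gene of the 9 transporters and of the 5 lists, filled circles for genes with an adjusted p under 0.05 by edgeR over 4 libraries, open circles for the other genes tested there and open squares for ratios between the replicate 2 libraries, without a test. All filled points of the response and synthetase lists lie below 0, and the point near 4 is *Slc7a2*, whose fitted value rests on 0 and 4 counts in Tc1 and depends on the prior count.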

How the data were processed

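RNA was taken from Tc1 and Tc9 cells sorted out of tumors, pooled into 2 libraries for each group as numbered in the labels, and sequenced by BGI. The authors deposited expected counts per gene and FPKM values scaled by gene length and library. The submitters' processing notes name mm10, and the aligner and counting program are not given in the sources used here. Per the labels, no strand setting is stated. Within the range of identifiers that a table covers, genes without a row were counted as 0, and an incomplete last row was dropped. Library depth was the full sum of counts in Tc9 replicate 2 and, for the others, was scaled from it by the ratio of counts to FPKM over genes with at least 500 counts (296 to 1330 genes).

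Over the 1681 genes in the range of all 4 libraries, expected counts were rounded and tested with edgeR 4.0.16 (R 4.3.3): TMM factors (0.983 to 1.02), filterByExpr with a minimum count of 10 and the two-sided quasi-likelihood test with Benjamini-Hochberg adjustment over the 1284 genes kept. Standard errors of edgeR fits were derived from the test, as the absolute log2 fold change divided by the square root of its F statistic. A fit over 3 libraries was added after seeing the data. CPM are counts scaled by depth and TMM. Ratios between the replicate 2 libraries used a prior count of 2, genes with at least 10 counts in 1 of both, and a 95% Wilson interval. Intervals and floors (3 counts, 0.0952 to 0.0956 CPM) allow for counting error alone and not for spread between libraries. PCR copies cannot be told from separate molecules in such libraries, so even the counting error may be understated. DESeq2 1.42.0 and limma 3.58.1 were alternatives. Replicates differed beyond sampling noise (chi-square per gene of 4.46 for Tc1, over the 4-library range, and 55.9 for Tc9, over the 3-library range).

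Members and lists were chosen with earlier results of these data known. Genes named from the lists are those called over 4 libraries and the 3 highest and 3 lowest ratios between the replicate 2 libraries. For each member in the 4-library range, the 3 genes with the nearest profile were named. Coordinates and promoter sequences are RefSeq's on GRCm38.p6, the same build as mm10.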

Additional observations from a re-analysis of the deposited data

How the results depend on the processing

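*Slc7a1* was lower in Tc9 under every alternative tried, at -0.33 without a filter on low counts, -0.29 with limma on log2(FPKM + 1) and on log2(FPKM + 0.1) and with library size only, and -0.38 to -0.28 when leaving out each library. *Slc38a1* ranged from -0.35 to -0.21 when leaving out each library and was -0.32 with the TMM factors of the replicate 2 libraries. With the replicate number as a block *Slc7a1* was at -0.33 and short of the threshold, and 444 genes were called, 406 of them also called without it. Deviations of same-numbered libraries had a correlation of -0.08. This value alone does not show whether the numbers pair the libraries. The block changed no other call of a named gene.

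Over all genes tested in the 4 libraries, calls numbered 130 higher and 110 lower without a filter, against 224 and 214, and 72 to 404 higher and 39 to 407 lower when leaving out each library. For the 5 lists these were 1 higher without a filter, and 1 to 7 higher and 5 to 18 lower when leaving out each library. Over the 3 libraries edgeR called 0 genes higher and 0 lower without a filter (370 and 228 at an unadjusted p under 0.05; DESeq2 called 217 and 121 with the filter), 297 and 166 with the filter at 50, 371 and 163 with library size only, and 320 and 212 with the replicate 2 factors. *Slc3a2* over 3 libraries passed the threshold at -0.89 with the filter at 50, -0.93 with DESeq2, -0.84 with limma on log2(FPKM + 1) and with library size only, and -0.92 with the replicate 2 factors.

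Between the replicate 2 libraries *Slc3a2* was at -0.70 with FPKM + 1, -0.71 with FPKM + 0.1 and with library size only, and -1.03 without Tc9 replicate 2. *Slc7a5* was at -0.37 in the first 3 and -0.45 with the replicate 2 factors. *Slc7a11* was at -0.90 with FPKM + 1 and -2.06 with FPKM + 0.1. *Slc1a5* was at -0.0070 with either pseudocount and -0.0073 with library size only. Of the 5 lists, 3 genes were past 1.5-fold higher and 5 lower with FPKM + 1. In the main ratios, with the threshold moved to 2-fold, 2 were past it higher and 1 lower. Adding 1 to FPKM shrinks a ratio by arithmetic where levels are low. *Slc7a11* was at 1.32 FPKM in Tc1 replicate 2 and 0.24 FPKM in Tc9 replicate 2. Scaling by library size only leaves out the TMM factors, 0.983 for Tc1 replicate 2 and 1.02 for Tc9 replicate 2. With 2 libraries per group, and 1 for most members, no value shows how Tc1 or Tc9 cells vary between mice.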
